A study of Mus musculus with 6 samples.

Results

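The RANKL and M-CSF axis is the set of signals by which bone cells control the formation of osteoclasts, the cells that resorb bone. It was examined here through 6 genes, chosen by name from the 39179 Ensembl genes of the count table, each of which matched 1 row. They are *Tnfsf11* (RANKL), *Tnfrsf11a* (RANK), *Tnfrsf11b* (osteoprotegerin), *Csf1* (M-CSF), *Csf1r* (the M-CSF receptor) and *Il34* (interleukin 34). RNA was sequenced from 6 primary osteosarcomas of *Nf2*-mutant mice, 3 of them *Cd44*+/+ (No244, No316 and No368) and 3 *Cd44*-/- (No203, No279 and No364). All 6 mice carried *Nf2*Δ2/+, a heterozygous mutation of the gene for the tumor suppressor Merlin, on a mixed background of C57BL/6, 129/Sv and FVB. The labels give no age, and a tumor is known here only by its number. The labels give tissue as osteosarcoma, while their extraction note speaks of cell lines. The methods of the study state that RNA came from tumor tissue.

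RANKL is a membrane-bound or shed ligand made by osteoblasts, osteocytes, hypertrophic chondrocytes and activated T cells. It binds RANK on precursors of the macrophage lineage and, through TRAF6, NF-κB, c-Fos and NFATc1, turns on the genes of the mature osteoclast. Osteoprotegerin is a secreted decoy receptor, made largely by osteoblasts and a target of Wnt signaling, which binds RANKL and keeps it from RANK. M-CSF and interleukin 34 are the ligands of the M-CSF receptor and keep the precursors alive and dividing. In osteosarcoma, tumor cells of the osteoblast lineage can supply these ligands, and osteoclasts and macrophages of the host carry the receptors.

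The libraries held between 18076388 and 26954142 counts. Values are given as normalized counts (CPM), that is, counts scaled to the effective library size after TMM normalization, and a count of 3, the smallest level taken as detectable, was between 0.099 and 0.252 CPM. The *Cd44*+/+ libraries No316 and No368 differed by less than the binomial sampling noise for 87.2% of the 16671 genes compared. The other 14 pairs of libraries did so for 15.7% to 24.1%. For this reason No316 and No368 entered as 1 sample, as their mean in each mean ± SD and as their sum in the fit, which leaves 2 *Cd44*+/+ and 3 *Cd44*-/- samples. *Cd44* itself was at 137.3, 243.6 and 240.3 CPM across No244, No316 and No368 and at 19.2, 15.7 and 61.8 in No203, No279 and No364. Its log2 fold change (*Cd44*-/- minus *Cd44*+/+) was -2.58 (standard error 0.76), with an unadjusted p of 0.0145 and an adjusted p of 0.818 by edgeR. *Cd44* lay lower in every *Cd44*-/- library, as did 9.19% of the genes tested. DESeq2 gave it an adjusted p of 0.0145 on the 6 libraries and 0.178 with the pair summed. The tumors differed in the tissue they held. Of 12 hepatocyte markers, all were highest in No364, where *Alb* took 4.27% of the counts, and skeletal muscle markers were highest in No244, where mitochondrial genes took 55.2% of the counts. *Xist* was at most 0.994 CPM in No279 and No364 and at least 858.9 in the other tumors, and all 3 *Cd44*+/+ tumors were among the latter, so that sex and genotype cannot be told apart in full. In a piece of tumor, fewer cells of a type and less RNA per cell cannot be told apart.

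The label osteosarcoma was compared with genes of bone-forming cells. *Sp7*, which encodes osterix, the transcription factor of committed osteoblasts, was at 192.2, 192.0 and 199.0 CPM across No244, No316 and No368 and at 333.2 in No203, but at 3.96 in No279 and 0.314 in No364. *Ibsp*, a protein of mineralizing bone, was between 640.1 and 4820.2 CPM in the first 4 of these tumors and at 3.27 and 2.25 in No279 and No364. *Col1a1*, the main collagen of bone, remained high in No279 at 11990.4 CPM and was 764.9 in No364. *Runx2* was at 68.3 CPM in No279 and 5.76 in No364, and between 95 and 173.2 in the other tumors. With TMM scaling, 1 of the 12 listed genes (*Phex*) lay above the mean of No316 and No368 in No279, and 0 did in No364. Among all genes tested, 53.1% and 50.3% did. Of the 12 osteoblast and osteocyte genes, edgeR called 0, the median log2 fold change was -0.30, and *Bglap*, *Spp1* and *Dmp1* lay lower in every *Cd44*-/- library, as did 9.19% of the genes tested. DESeq2 on the 6 libraries called 1 of the 12, *Bglap*, lower (adjusted p = 0.0307), as it did 1.12% of the genes with an adjusted p. *Sp7*, *Alpl*, *Ibsp*, *Dmp1*, *Sost* and *Mepe* had no adjusted p in that fit and could not be called. *Bglap*, which encodes osteocalcin, was at 3481.0, 2042.2 and 1833.3 CPM across No244, No316 and No368 and at 269.2, 4.79 and 6.80 in No203, No279 and No364. *Sp7* and *Ibsp* were thus low in 2 of the 3 *Cd44*-/- tumors, and each difference between genotypes in a gene of the osteoblast lineage has these values beside it. Their part in the results was not tested.

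The start regions of the genes for the RANKL ligand and receptor, which ranked the tumors in the same order with TMM scaling, are shown because the study links the intracellular part of CD44 to short DNA elements in promoters. The windows hold the 250 bases before and the 50 bases after the annotated start (RefSeq, GRCm38.p6). Windows were read for *Tnfsf11*, *Tnfrsf11a* and *Csf1* and not for *Tnfrsf11b*, *Csf1r* and *Il34*. Capitals mark every match, on either strand, to CCTGCG (the CD44 response element named by the study), to TGACTCA or TGAGTCA (the TRE, which reads the same on both strands as a pair), to CTTTGAA or CTTTGAT (TCF/LEF), to TGTGGT (RUNX) and to TATAAA. The *Tnfsf11* window is chr14:78307994-78308293 on the minus strand, and the *Tnfrsf11a* window is chr1:105780473-105780772 on the plus strand.
Tnfsf11: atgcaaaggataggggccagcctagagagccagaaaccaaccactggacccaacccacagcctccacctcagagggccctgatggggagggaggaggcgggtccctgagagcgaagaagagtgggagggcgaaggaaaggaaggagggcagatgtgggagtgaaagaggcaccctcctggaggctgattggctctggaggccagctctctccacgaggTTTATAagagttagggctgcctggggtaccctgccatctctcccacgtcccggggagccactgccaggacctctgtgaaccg
Tnfrsf11a: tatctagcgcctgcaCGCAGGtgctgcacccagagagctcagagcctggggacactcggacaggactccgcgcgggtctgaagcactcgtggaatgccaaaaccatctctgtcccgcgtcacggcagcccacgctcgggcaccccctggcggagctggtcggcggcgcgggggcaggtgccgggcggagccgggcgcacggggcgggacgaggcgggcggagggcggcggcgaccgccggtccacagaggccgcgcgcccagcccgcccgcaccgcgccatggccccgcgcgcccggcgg

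The *Tnfrsf11a* window held 1 match to CCTGCG, on the opposite strand 235 bases before the start, a letter string found in 17.3% of the 32851 promoter windows. The *Tnfsf11* window held 1 match to TATAAA, on the opposite strand 32 bases before the start, found in 13.6% of windows. The TRE was in 5.2%, the TCF/LEF letters in 8.65% and TGTGGT in 16.8% of windows, and none of these was found in the windows of *Tnfsf11*, *Tnfrsf11a* and *Csf1*. The *Csf1* window held no match to any of the 5. A match is a string of letters and no evidence of binding, and its absence concerns only these windows.

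*Tnfrsf11b* (ENSMUSG00000063727, chromosome 15 of GRCm38 from 54250619 to 54278484, minus strand, overlapped by no other annotated gene) encodes osteoprotegerin. In *Cd44*+/+ tumors it had 20 counts in No244, and 1753 and 1482 in No316 and No368. In the *Cd44*-/- tumors No203, No279 and No364 the counts were 113, 12 and 27. In CPM these were 1.68, 60.9 and 62.2 against 4.48, 0.396 and 1.41. The pair No316 and No368 stood far above all other tumors, and No244, although *Cd44*+/+, lay within the range of the *Cd44*-/- tumors. The level in the pair was 36.6 times that in No244, and the 95% Poisson interval of No244 (1.03 to 2.60 CPM, counting error only) overlapped that of No364 (0.931 to 2.06).

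The mean of *Tnfrsf11b* was 31.6 ± 42.4 CPM (SD, n = 2) in *Cd44*+/+ and 2.10 ± 2.13 CPM (SD, n = 3) in *Cd44*-/- tumors, a difference smaller than the SD of the *Cd44*+/+ samples. The log2 fold change, given throughout as *Cd44*-/- minus *Cd44*+/+, was -3.94 (standard error 1.57). With edgeR's quasi-likelihood test the unadjusted p was 0.0451 and the adjusted p 0.818. An unadjusted p under 0.05 with a lower level in *Cd44*-/- tumors was found for 2.45% of the 17844 genes tested, and 1 of the 6 axis genes, *Tnfrsf11b*, was among them. No gene (0%) had an adjusted p under 0.05 in this fit, while 761 had an unadjusted p under 0.05. DESeq2 with No316 and No368 as separate samples called *Tnfrsf11b* lower (log2 fold change -4.33, standard error 1.27, adjusted p = 0.035), as it did 1.12% of the genes with an adjusted p. With the pair summed, DESeq2 called 146 genes and gave *Tnfrsf11b* an adjusted p of 0.236. Without the pair, edgeR's log2 fold change turned to 0.30 (standard error 1.70, adjusted p = 0.962), so that the lower level in *Cd44*-/- tumors rested on No316 and No368. Without No244, it was -4.91 (standard error 1.29, adjusted p = 1).

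**Figure D1:**
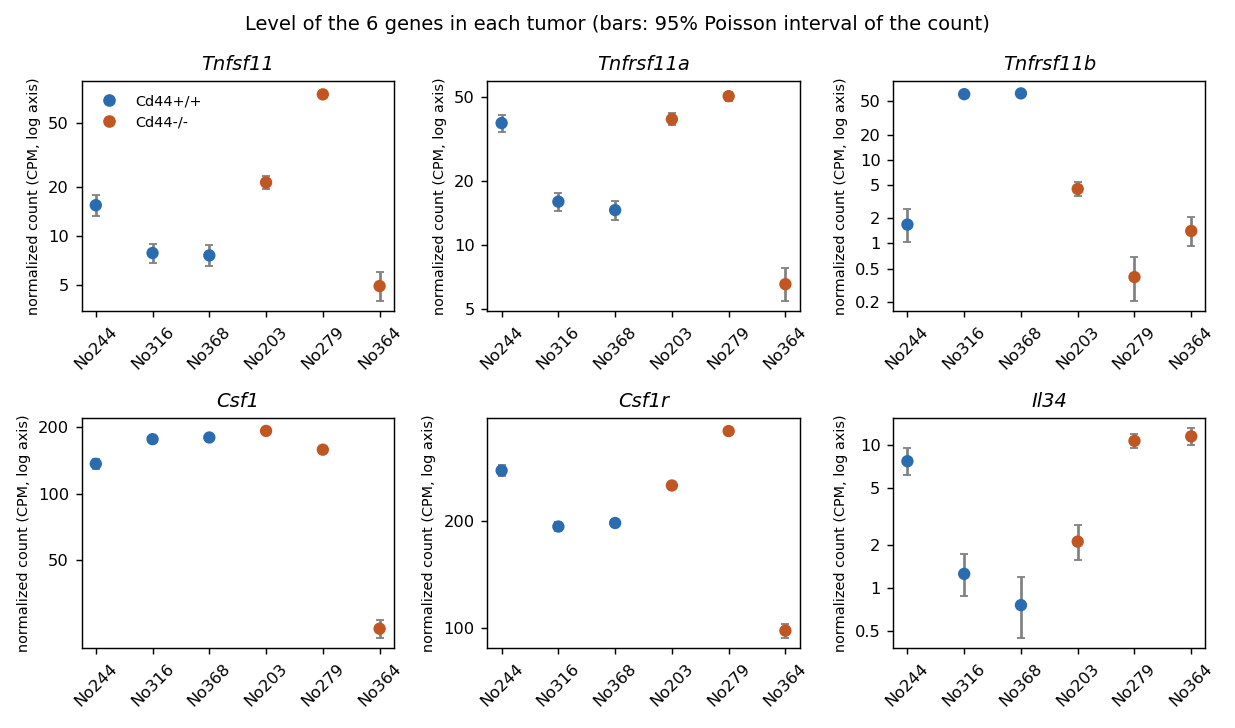
Normalized counts (CPM, log axis) of the 6 genes in each tumor, with *Cd44*+/+ tumors in blue, *Cd44*-/- tumors in orange and bars for the 95% Poisson interval of the count. *Tnfrsf11b* was at 60.9 and 62.2 CPM in No316 and No368 and at most 4.48 CPM in the other 4 tumors, No244 among them.

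*Tnfsf11* (ENSMUSG00000022015, chromosome 14 from 78277445 to 78308043, minus strand, no overlapping gene) encodes RANKL. It was at 15.5, 7.86 and 7.60 CPM across *Cd44*+/+ No244, No316 and No368 and at 21.4, 74.7 and 4.92 across *Cd44*-/- No203, No279 and No364. The *Cd44*-/- tumors held both the highest and the lowest level, 15.2-fold apart. The means were 11.6 ± 5.47 CPM (SD, n = 2) and 33.7 ± 36.5 CPM (SD, n = 3). The log2 fold change was 1.54, with a standard error of 1.13 and an edgeR adjusted p = 0.831. It was 0.18 without No279, the tumor with the highest level, and was 2.06 (standard error 0.78, adjusted p = 0.989) without No364, the tumor with the hepatocyte transcripts.

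*Tnfrsf11a* (ENSMUSG00000026321, chromosome 1 from 105780718 to 105847981, plus strand, no overlapping gene) encodes RANK, the receptor on osteoclast precursors. It was at 37.5, 16 and 14.6 CPM across No244, No316 and No368 and at 39.1, 50.2 and 6.54 in No203, No279 and No364. The order of the tumors was that of *Tnfsf11*, from No364 through the pair, No244 and No203 to No279. The place of No244 depended on the scaling: with library size alone its *Tnfsf11* was at 8.74 CPM, below the pair (10.3 and 10), and its *Tnfrsf11a* at 21.2 CPM, beside 21 and 19.3 in the pair. No244 and No203 did not differ beyond counting error, with 95% Poisson intervals of 34.1 to 41.1 and 36.7 to 41.7 CPM. The means were 26.4 ± 15.7 CPM (SD, n = 2) and 32.0 ± 22.7 CPM (SD, n = 3), with a log2 fold change of 0.28 (standard error 0.90) and an edgeR adjusted p = 0.959. It was -0.27 without the pair and -0.21 without No279.

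None of the 6 axis genes was free of overlap between the genotypes, where 9.58% of the genes tested lay higher and 9.19% lower in every *Cd44*-/- library. Without No364, *Tnfsf11* and *Tnfrsf11a* were higher in both remaining *Cd44*-/- tumors than in each *Cd44*+/+ library, as were 15.1% of the genes tested. Without No244, *Tnfrsf11b* was lower and *Il34* higher in every *Cd44*-/- library, where 18.5% and 20.5% of the genes were. The same 2 genes were apart without No203, where 18.2% of the genes lay lower and 19.7% higher. These comparisons were chosen after the values had been seen.

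The balance of the ligand and its decoy was read as the ratio of *Tnfsf11* to *Tnfrsf11b* within each library, per length of exon, which needs no scaling between libraries. Among *Cd44*+/+ tumors the ratio was 11.6 for No244, 0.162 for No316 and 0.154 for No368. It was 6.02 in No203, 237.6 in No279 and 4.39 in No364. *Tnfrsf11b* thus exceeded *Tnfsf11* in the pair of *Cd44*+/+ libraries, and *Tnfsf11* exceeded *Tnfrsf11b* in every other tumor. No244 had a ratio above those of 2 *Cd44*-/- tumors, so the genotypes overlapped. No279 had both the highest *Tnfsf11* (33.4 CPM per kilobase of exon) and the lowest *Tnfrsf11b* of all tumors (0.141 CPM per kilobase). In No364 both were low, at 2.20 and 0.501 CPM per kilobase.

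**Figure D2:**
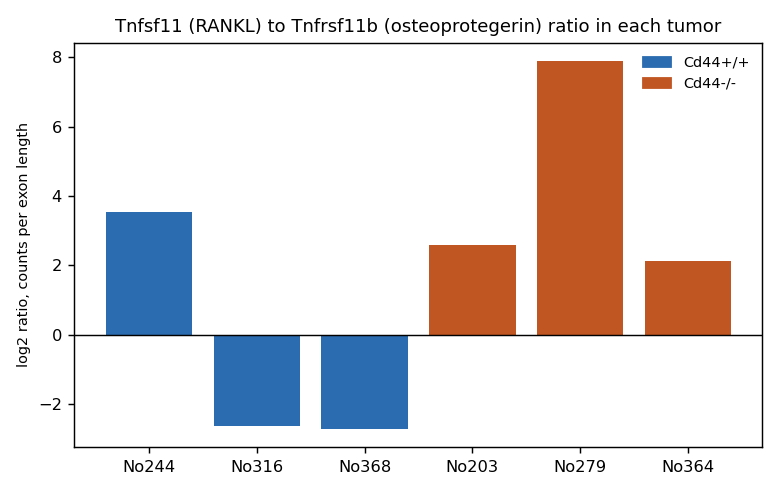
Log2 ratio of *Tnfsf11* to *Tnfrsf11b* counts per exon length in each tumor, with *Cd44*+/+ in blue and *Cd44*-/- in orange and a line at equal levels. No316 and No368 lie below 0 (-2.62 and -2.70), and No244 (3.54) lies between No203 (2.59) and No279 (7.89).

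*Csf1* (ENSMUSG00000014599, chromosome 3 from 107741048 to 107760469, minus strand, no overlapping gene) encodes M-CSF, the survival factor of the macrophage lineage. It was at 136.7, 176.6 and 179.7 CPM across No244, No316 and No368 and at 192.4, 158.3 and 24.6 in No203, No279 and No364. With TMM scaling, a narrow range of 5 libraries stood against No364, which was lowest. With library size alone, No244 was at 77.2 CPM, No316, No368, No203 and No279 were between 195.8 and 237.1, and No364 was at 18.2. The means were 157.4 ± 29.3 CPM (SD, n = 2) and 125.1 ± 88.7 CPM (SD, n = 3), with a log2 fold change of -0.34 (standard error 0.89, adjusted p = 0.951 from edgeR). Without No364 it was 0.15 (standard error 0.57).

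*Csf1r* (ENSMUSG00000024621, chromosome 18 from 61100598 to 61132149, plus strand) was the most even of the 6 genes, at 278.3, 193.2 and 197.7 CPM across No244, No316 and No368 and at 252.5, 360.0 and 98.0 in No203, No279 and No364. Its highest and lowest tumors were 3.67-fold apart, and 42.6% of the genes tested had a smaller range of log2 CPM. For *Tnfrsf11b* this share was 96.1%. The *Csf1r* means were 236.9 ± 58.6 CPM (SD, n = 2) and 236.8 ± 131.7 CPM (SD, n = 3), with a log2 fold change of -0.00 (standard error 0.74, adjusted p = 1 from edgeR). Exons of *Csf1r* share 873 bases with *Hmgxb3* on the opposite strand, and the strand setting of the counting is not given in the sources used here, so that its level is uncertain to that extent.

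*Il34* (ENSMUSG00000031750, chromosome 8 from 110741829 to 110805924, minus strand) encodes the second ligand of the M-CSF receptor. It was counted 91, 36 and 18 times in No244, No316 and No368 and 53, 320 and 217 times in No203, No279 and No364. In CPM these were 7.65, 1.25 and 0.756 against 2.10, 10.6 and 11.4. *Il34* was low where *Tnfrsf11b* was high, in the pair. The means were 4.32 ± 4.70 CPM (SD, n = 2) and 8.01 ± 5.13 CPM (SD, n = 3), with a log2 fold change of 0.90 (standard error 1.15) and an edgeR adjusted p = 0.886. It was 2.90 without No244 and 0.01 without the pair. Exons of *Il34* share 22 and 75 bases with 2 antisense genes.

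Per length of exon, *Csf1* exceeded *Il34* 6.63-fold in No244, 52.3-fold in No316 and 88.2-fold in No368, and 34-fold in No203 and 5.56-fold in No279. No364 was the single tumor in which *Il34* was above *Csf1*, with a *Csf1* to *Il34* ratio of 0.803. *Csf1* and its receptor were close to equal per length in the pair (ratios of *Csf1* to *Csf1r* of 0.999 and 0.994). The receptor was higher than the ligand in the other tumors, with ratios of 0.537, 0.833, 0.481 and 0.274 in No244, No203, No279 and No364.

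**Figure D3:**
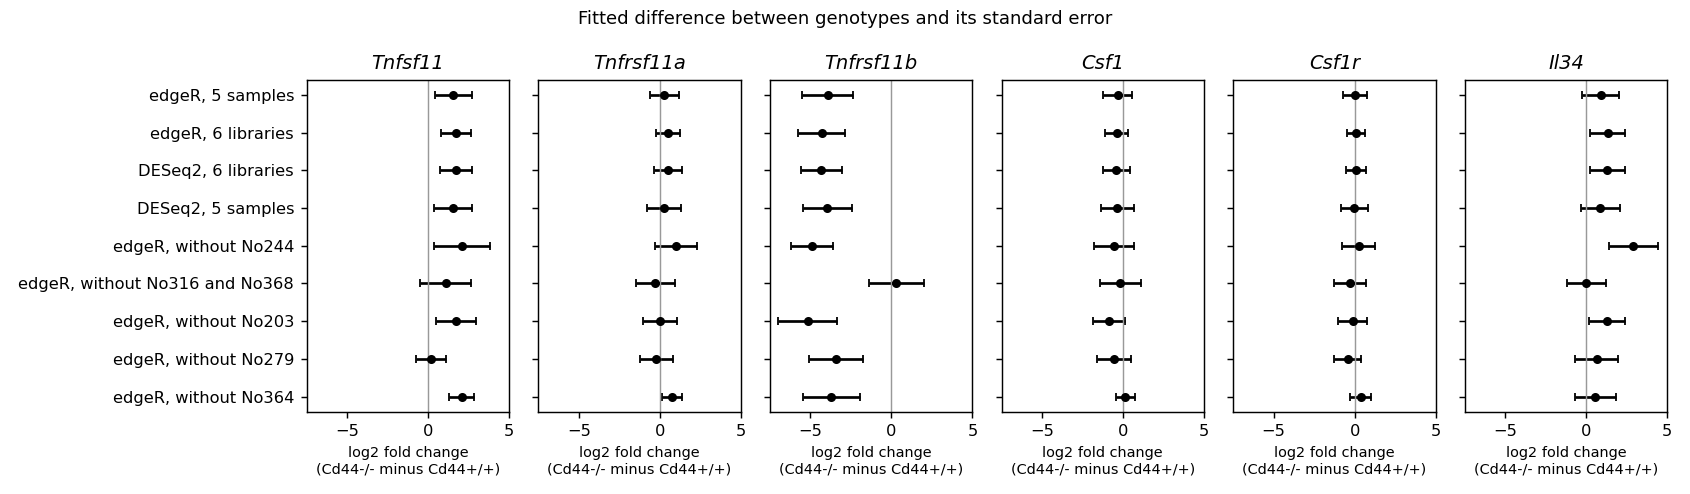
Log2 fold change (*Cd44*-/- minus *Cd44*+/+, horizontal axis) and its standard error for each gene under 9 fits that differ in tool or in the libraries used. *Tnfrsf11b* runs from -5.18 without No203 to 0.30 without No316 and No368, and the other 5 genes lie between -0.85 and 2.90.

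The genes that RANK turns on in osteoclasts varied widely between tumors of the same genotype. *Acp5*, the tartrate-resistant acid phosphatase of osteoclasts, was at 6875.7 CPM in No244 but at 166.5 and 168.2 in No316 and No368, and at 5702.3, 2701.0 and 309.5 in No203, No279 and No364. *Oscar*, a costimulatory receptor of osteoclasts, was at 100.2, 1.22 and 0.924 CPM across *Cd44*+/+ No244, No316 and No368 and at 133.1, 55.4 and 4.81 across *Cd44*-/- No203, No279 and No364. The *Cd44*+/+ libraries thus held both low and high levels of osteoclast genes, and so did the *Cd44*-/- libraries.

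*Ocstamp*, needed for the fusion of osteoclasts, was at 90.7, 1.63 and 1.43 CPM across No244, No316 and No368 and at 141.9, 96.4 and 7.54 in No203, No279 and No364. *Calcr*, the calcitonin receptor, was at 66.6, 0.73 and 0.84 CPM and at 6.66, 17.5 and 1.10 in the same order. Of the 14 osteoclast effectors tested, with TMM scaling, 13 were above the mean of the pair in No244, 13 in No203, 13 in No279 and 7 in No364, where 49.6%, 51.0%, 53.1% and 50.3% of all genes tested were. The pair with its high *Tnfrsf11b* had the lowest mean log2 CPM of these genes (5.09 in each library). No364, at 5.34, was nearly as low with little *Tnfrsf11b*, *Tnfsf11* or *Tnfrsf11a*.

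**Figure D4:**
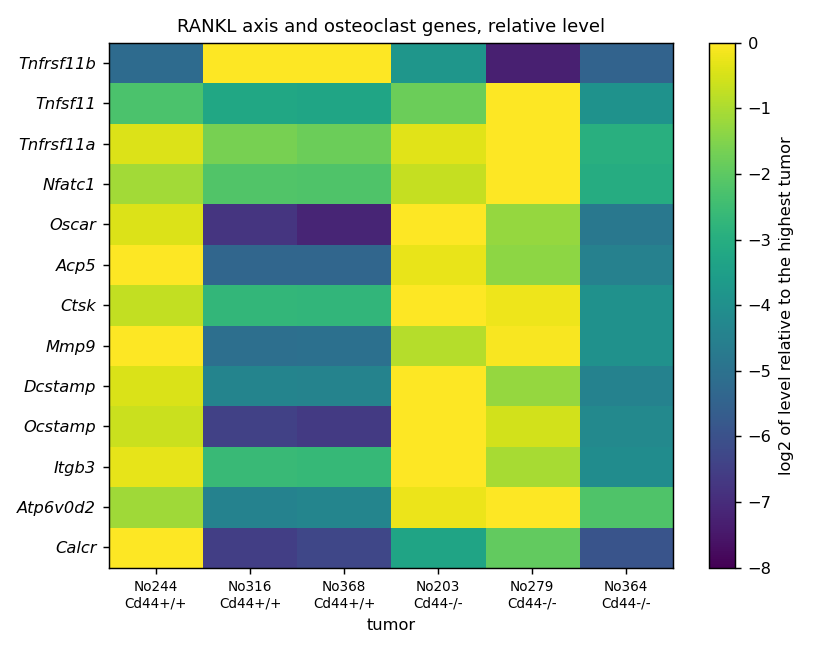
Level of *Tnfrsf11b*, *Tnfsf11*, *Tnfrsf11a* and 10 osteoclast genes (rows) in each tumor (columns), as log2 of the level relative to the highest tumor for that gene. The columns of No316 and No368 are bright for *Tnfrsf11b* and dark for *Oscar*, *Acp5*, *Ocstamp* and *Calcr*, and those of No244, No203 and No279 are darker for *Tnfrsf11b* and brighter for the latter genes.

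With edgeR 0 of the 14 osteoclast effectors were called between genotypes, and the median log2 fold change was -0.06, beside 0.12 over all genes tested. The genotypes were separated by 1 of them, which lay higher in every *Cd44*-/- library, as did 9.58% of the genes tested. The one that separated them was *Car2*, carbonic anhydrase II, which supplies the acid for resorption. It was at 35.0, 14.7 and 14.4 CPM across No244, No316 and No368 and at 173.2, 134.9 and 37.8 in No203, No279 and No364. Its log2 fold change was 2.22 (unadjusted p = 0.0393 and adjusted p = 0.818 in the edgeR fit).

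The 24 genes between RANK and the nucleus were all tested, and 0 were called. Their median log2 fold change was 0.08, with 14 above 0. *Nfatc1*, the master transcription factor of osteoclasts, was at 115.3, 54.8 and 53.9 CPM across No244, No316 and No368 and at 152.5, 246.9 and 29.7 in No203, No279 and No364. With TMM scaling this is the order of *Tnfsf11* and *Tnfrsf11a*. *Traf6*, the adaptor bound to RANK, stayed between 21.6 and 35.3 CPM in all tumors. *Traf1* was at 43.8 CPM in No244 and at 2.92 and 2.94 in the pair, and at 28.2, 34.1 and 6.12 in No203, No279 and No364. *Nfkb2* and *Tab2* were higher and *Tab1* and *Mapk14* lower in every *Cd44*-/- library, 2 of 24 genes each way, a share near the 9.58% higher and 9.19% lower of all genes tested.

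Of the genes downstream of the M-CSF receptor and its ITAM partners, 17 were tested, 0 were called, 0 separated the genotypes and the median log2 fold change was 0.18. *Tyrobp*, the DAP12 adaptor, was at 208.1, 104.9 and 111.6 CPM across No244, No316 and No368 and at 229.6, 285.9 and 64.9 in No203, No279 and No364. *Spi1*, the transcription factor PU.1 of the myeloid lineage, was at 31.0, 28.1 and 28.4 CPM and at 69.6, 109.5 and 15.8 in the same order. *Trem2*, a receptor that signals through DAP12, was higher in the pair, at 42.5 and 43.4 CPM, than in any other tumor, where it was at most 12.3.

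Macrophages also carry *Csf1r*, and their markers ranked the tumors in another order. The mean log2 CPM of 14 macrophage markers was highest in the pair, at 6.35 and 6.37, and was 3.68 in No244 and 4.25, 5.32 and 4.88 in No203, No279 and No364. *Adgre1*, which encodes F4/80, was at 55.6 and 56.2 CPM in the pair, at 2.60 in No244 and at 3.57, 13.3 and 12.8 in No203, No279 and No364. *C1qc* was at 264.2 and 269.7 CPM in the pair and between 11.6 and 85.7 in the other tumors. *Csf1r* itself was lower in the pair than in No203 and No279. It was also lower than in No244, but with library size alone as the scaling it was higher (254.1 and 260.9 against 157.3 CPM). With edgeR 0 of the 14 macrophage markers were called. The genotypes were separated by 1 of them, *Mertk*, a receptor for the uptake of dying cells. It lay lower in every *Cd44*-/- library, as did 9.19% of the genes tested. DESeq2 on the 6 libraries called it lower (adjusted p = 0.0221), as it did 1.12% of the genes with an adjusted p. *Mertk* was at 38.9, 54.5 and 59.6 CPM across No244, No316 and No368 and at 20.9, 9.94 and 13 in No203, No279 and No364.

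Markers of Kupffer cells, the macrophages of the liver, were highest in No364, with a mean log2 CPM of 3.93, and 0.55 in No203, against -2.83, -2.74, -2.77 and -2.01 in No244, No316, No368 and No279. *Clec4f* was at 42.9 CPM in No364, 3.49 in No203, at most 0.168 in the *Cd44*+/+ libraries and at 0 in No279. What these cells added to the *Csf1r* and *Il34* counts of No364 was not tested. With edgeR 0 of the 4 Kupffer genes tested were called. DESeq2 on the 6 libraries called 4 of the 5 listed higher, as it did 1.21% of the genes with an adjusted p. The other, *Marco*, had an adjusted p of 0.0982 in that fit.

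**Figure D5:**
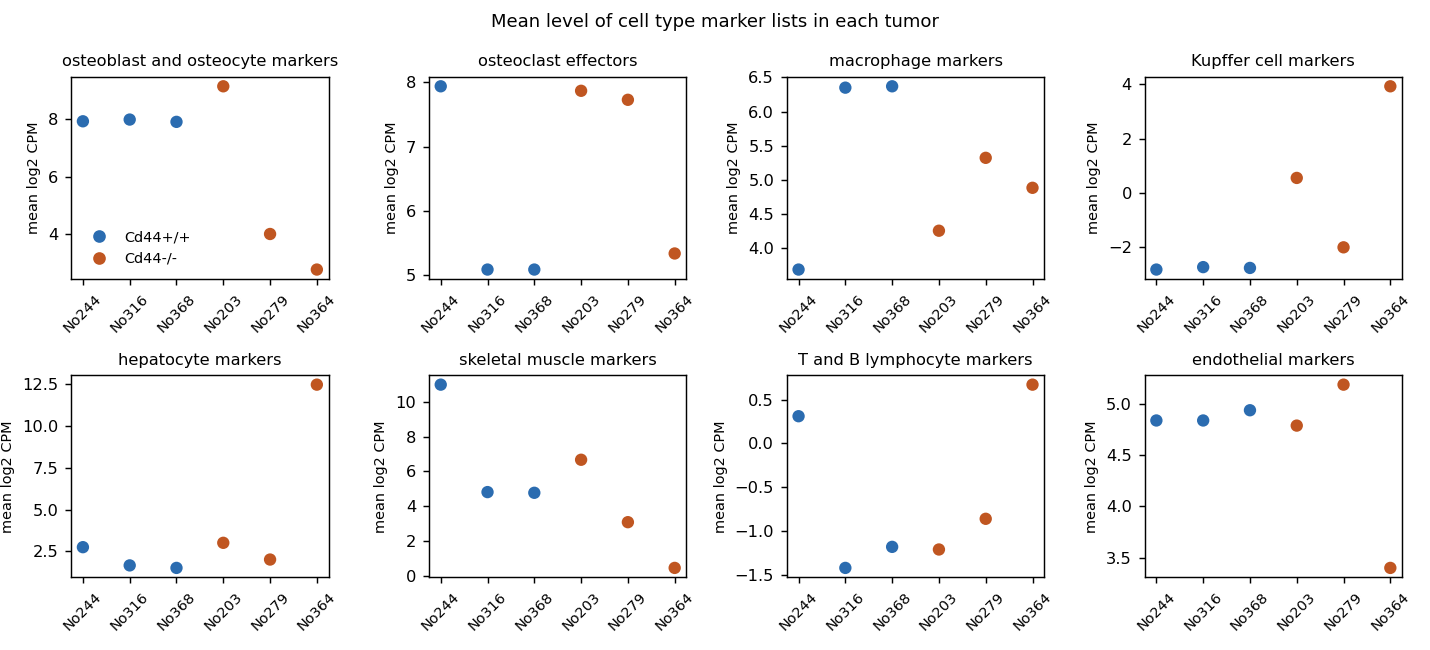
Mean log2 CPM of 8 lists of cell type genes in each tumor, with *Cd44*+/+ in blue and *Cd44*-/- in orange. Osteoblast and osteocyte markers were at 4.0 in No279 and 2.76 in No364 and at least 7.91 in the other tumors, and osteoclast effectors were at 5.09 in No316 and No368 and at 5.34 in No364.

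Regulators of *Tnfsf11* and *Tnfrsf11b* in bone cells made the longest list, with 34 genes, of which 30 were tested. With edgeR 0 were called, and the median log2 fold change was -0.44, with 11 of 30 above 0. In every *Cd44*-/- library 2 lay higher and 5 lower, where 9.58% and 9.19% of all genes tested did. DESeq2 on the 6 libraries called 1 higher (*Ptgs2*) and 2 lower (*Wnt4* and *Lef1*), as it did 1.21% and 1.12% of the genes with an adjusted p. *Pth1r*, *Wnt5a*, *Sost*, *Dkk1*, *Il11*, *Wnt16* and *Wnt3a* had no adjusted p in that fit and could not be called. The genes that separated the genotypes were *Ptgs2* and *Il11ra1* (higher) and *Lif*, *Lifr*, *Wnt4*, *Wnt10b* and *Lef1* (lower). A part of the list concerns the Wnt pathway, which is known to raise osteoprotegerin. *Wnt4*, a Wnt ligand of bone-forming cells, was at 130.4, 240.0 and 234.2 CPM across No244, No316 and No368 and at 14.1, 11 and 6.18 in No203, No279 and No364. Its log2 fold change was -4.16 (unadjusted p = 0.000497 and adjusted p = 0.818 in the edgeR fit). No244 had high *Wnt4* and little *Tnfrsf11b*.

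*Lef1*, a transcription factor of Wnt signaling, was at 4.20, 28.5 and 27 CPM across No244, No316 and No368 and at 2.42, 4.03 and 1.31 in No203, No279 and No364. Its pattern was like that of *Tnfrsf11b*, with the pair far above the other 4 tumors. *Wnt10b*, a Wnt ligand that favors osteoblasts, was at 20, 60.5 and 58.3 CPM and at 9.52, 3.37 and 0.314 in the same order. *Ctnnb1*, which encodes β-catenin, varied from 343.8 to 787.0 CPM with overlapping genotypes. *Axin2*, a target of the pathway, was at 22.5 and 24.1 CPM in the pair and at 2.60 in No244, but also at 17.9 and 19.8 in No279 and No364 and at 2.10 in No203.

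Among the inducers of RANKL, *Pth1r*, the receptor of parathyroid hormone, was at 645.1, 199.7 and 197.4 CPM across No244, No316 and No368 and at 386.7, 11.9 and 5.44 in No203, No279 and No364. *Vdr*, the vitamin D receptor, was at 126.4, 72.3 and 68.3 CPM and at 164.4, 20.4 and 1.99 in the same order. The tumor with the most *Tnfsf11*, No279, thus had little *Pth1r*, and it had the most *Ptgs2*, the inducible enzyme of prostaglandin synthesis. *Ptgs2* was at 0.504, 2.85 and 2.85 CPM across *Cd44*+/+ No244, No316 and No368 and at 13.4, 52.9 and 4.19 across *Cd44*-/- No203, No279 and No364. Its log2 fold change was 3.75 (unadjusted p = 0.038 and adjusted p = 0.818 from edgeR), and DESeq2 on the 6 libraries gave an adjusted p of 0.0493. Among other listed genes, *Pthlh*, *Il1b* and *Osmr* were also highest in No279, at 3.96, 13 and 69.4 CPM. They were at most 0.357, 6.34 and 49 CPM in the other tumors. *Il1r1* and *Il6ra* were highest in No364 (72.9 and 14.3 CPM) and *Lif* in No244 (12.8 CPM). *Il6*, *Il11*, *Tnf* and *Wnt16* were at most 1.26 CPM in each library, and *Wnt3a* had 0 counts.

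T cells are another source of RANKL. *Cd3e* and *Cd3d* were highest in No364, where *Tnfsf11* was lowest, at 1.26 and 1.31 CPM, and *Cd4* was highest in No279, where *Tnfsf11* was highest, at 3.33 CPM. The part of T cells in the level of *Tnfsf11* was not tested. *Cd28*, a costimulatory receptor of T cells, was at 22.9 CPM in No244, at 4.41 and 3.95 in the pair and at most 2.46 in the *Cd44*-/- tumors. Of the 10 lymphocyte genes tested, edgeR called 0, and *Cd28* lay lower and *Trac* higher in every *Cd44*-/- library (9.19% and 9.58% of all genes tested). Of the chondrocyte markers, *Acan* was at 152.9 CPM in No279, the tumor with the highest *Tnfsf11*, and at 10.1, 10.3, 1.36, 0.882 and 0.168 in No203, No364, No316, No368 and No244. *Col10a1*, which marks hypertrophic chondrocytes, was at most 0.756 CPM in each library, and *Col2a1*, the collagen of cartilage, was at 38.3 CPM in No244 and 21 in No203 but at 0.627 in No279 and 0 in No364.

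For each of the 6 genes, the 3 genes with the most similar pattern were found by Pearson's r of log2 CPM over the 5 samples among 17561 genes with a symbol. With so few points many genes reach a high r, from 50 (*Tnfrsf11b*) to 289 genes (*Csf1*) at r of 0.95 or more, and these values are a description. *Tnfsf11* was most like *Tbc1d2b*, *2310022A10Rik* and *Rhoj*. *Tnfrsf11a* was most like *Adgrl1*, *Edil3* and *Stambpl1*. *Tnfrsf11b* was most like *Hps3*, *Nhsl1* and *Sema3d*, and *Sema3d* was at 38.6 and 38.8 CPM in the pair and between 0.858 and 7.10 in the other tumors. *Csf1* was like *Foxd2* and *Zfp362*, *Csf1r* most like *Trabd2b*, *Npc2* and *A930004D18Rik*, and *Il34* most like *Pdcd1*, *Gm3150* and *Epn1*. The genes named had r of 0.992 or more. The most opposite patterns, with r of -0.989 or below, were those of *9430065F17Rik*, *Tdrp* and *Gm7162* for *Tnfsf11*, *Atg4a-ps*, *Maob* and *Daglb* for *Tnfrsf11a*, *Xrcc6*, *Mirt1* and *Slc4a11* for *Tnfrsf11b*, *Gbp11*, *Mst1* and *Selenbp2* for *Csf1*, *Syne4*, *Rmdn3* and *Pex11a* for *Csf1r*, and *Rsrc1*, *Nsd1* and *Dlx6os2* for *Il34*. *Pdcd1* was below 1 CPM in each library.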

How the data were processed

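Total RNA of 6 primary osteosarcomas was made into stranded mRNA libraries and sequenced from one end. The authors aligned the reads to GRCm38 with HISAT2 2.0.2, counted them per Ensembl gene with featureCounts (Subread 2.0.0), per the labels, and deposited the raw counts without normalization. How reads on the opposite strand or in several places were counted is not given in the sources used here. Symbols, coordinates and exon lengths are those of GENCODE M21 (GRCm38), another release than the one counted on, and 37607 of 39179 identifiers had a symbol.

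The comparison of genotypes used edgeR 4.0.16 under R 4.3.3 (with TMM, filterByExpr, quasi-likelihood F test, Benjamini-Hochberg threshold 0.05 over all genes tested), with No316 and No368 summed. Standard errors were obtained as log2 fold change over the root of F. p-values measure the spread between these tumors only. DESeq2 1.42.0, limma-voom (limma 3.58.1), other scalings and filters, and leaving out libraries were alternatives. Scripts were tested on simulated counts. Genes named are the 6 members, *Cd44*, list genes that separated the genotypes or act with a member, and the 3 genes most like and most opposite to each member, of which 1 is not reported here. The members and lists were chosen with earlier results of these data known. Of the listed genes, *Flt3l* and *Pira6* matched no row. Poisson intervals cover counting error only.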

Additional observations from a re-analysis of the deposited data

How the results depend on the processing

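With edgeR, 0 genes were called under each scaling, filter and left-out library tried, and limma-voom, run once on the 5 samples, called 0 (632 at an unadjusted p under 0.05). With the pair summed, DESeq2 called 146 of 18319 genes with an adjusted p. On the 6 libraries it called 419 of 17952, and 1195 of 19427 without the Cook's distance filter. In the same order, 1, 3 and 5 genes of the pathway lists were called. The lists matched 19 genes (other ligands and receptors), 24 (RANK signaling), 17 (M-CSF receptor and ITAM signaling), 14 (osteoclast effectors) and 34 (regulators). Not all of these had an adjusted p. At an unadjusted p under 0.05, edgeR gave 761 genes, 1810 with 6 libraries, 859 with library size alone and 1135 without the low-count filter, and between 260 (without No244) and 1720 (without No203) with a library left out. Of the 761, 324 lay higher without *Cd44*, against 1085 of the 1810 with 6 libraries and 637 of the 859 with library size alone, which moved the median of all genes to 0.25.

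The log2 fold change of *Tnfrsf11b* was -4.33 with DESeq2 on 6 libraries (adjusted p = 0.035, and 0.0162 without the Cook's distance filter). With libraries left out it ran from -5.18 to 0.30, *Tnfsf11* from 0.18 to 2.09, *Tnfrsf11a* from -0.27 to 1.02, *Csf1* from -0.85 to 0.15, *Csf1r* from -0.44 to 0.37 and *Il34* from 0.01 to 2.90. The direction turned for *Tnfrsf11b* without the pair (0.30), for *Tnfrsf11a* without No279 (-0.21) and without the pair (-0.27), and for *Csf1* without No364 (0.15). *Csf1r*, at -0.00, took the other sign with 6 libraries (0.09), library size alone (0.36), mitochondrial genes removed (0.00), no low-count filter (0.02), both DESeq2 fits on 6 libraries (0.07), and without No244 (0.24), No368 (0.01) or No364 (0.37). The causes were not tested. Of 108 levels under another scaling, 96 moved by less than the SD of their genotype, and the 12 others were all in *Cd44*+/+ libraries. That SD can be wide, so this count cannot show that levels were stable. *Tnfrsf11b* in No316 went from 60.9 to 80.1 CPM with library size alone, within its SD of 42.4. With 5 samples, or 1 *Cd44*+/+ sample where No244 or the pair was left out and its spread was taken from the other group, the number of tumors limits every comparison, and *Tnfrsf11b* rested on 12 to 113 counts in the *Cd44*-/- tumors.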

Other observations

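Other ligands and receptors that touch the axis were also measured. Of 20 genes listed, 17 were tested and 0 were called by edgeR. In every *Cd44*-/- library 1 lay higher (*Flt3*) and 1 lower (*Ptprz1*), where 9.58% and 9.19% of all genes tested did. *Flt3* had 11 counts in No203, beside 11 and 9 in No316 and No368 (0.436, 0.382 and 0.378 CPM). *Ptprz1*, a receptor tyrosine phosphatase that can bind interleukin 34, was at 77.9, 48.2 and 48.6 CPM across No244, No316 and No368 and at 39.5, 0.627 and 0.419 in No203, No279 and No364. *Sdc1*, a proteoglycan that also binds it, was at 80.8, 134.1 and 131.8 CPM and at 104.8, 333.2 and 190.2 in the same order. The 2 tumors with the most *Il34*, No279 and No364, thus had the least *Ptprz1* and the most *Sdc1*. *Lgr4*, a receptor that can bind RANKL in place of RANK, was highest in No364 at 64.2 CPM and between 9.61 and 28.8 in the other tumors. *Tnfsf10*, the TRAIL ligand that osteoprotegerin also binds, was between 1.39 and 4.70 CPM.

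*Sema3a*, a semaphorin by which osteoblasts restrain osteoclasts, was at 8.15, 13.3 and 12.8 CPM across No244, No316 and No368 and at 16.4 and 7.22 in No203 and No364. It was higher still in No279, the tumor with the highest *Tnfsf11* and the lowest *Tnfrsf11b*. *Kitl*, the ligand of KIT, was also highest there, at 49.8 CPM against 7.64 to 24.6 in the other tumors. Endothelial cells are another source of osteoprotegerin. Of 6 endothelial genes, *Kdr* was at 61.7, 52.2 and 55.5 CPM across No244, No316 and No368 and at 34.9, 22.9 and 14.6 in No203, No279 and No364, and *Cdh5* was highest in No279 at 159.0 CPM. Their part in the level of *Tnfrsf11b* was not tested. Of the keratinocyte markers, *Krt5* was at 0 except in No364 (0.628 CPM) and *Krt14* at most 4.24 CPM (No203).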
